A study of Drosophila mojavensis with 172 samples.

Results

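Diet was compared in third-instar larvae of the Las Bocas population of Drosophila mojavensis, a fly that breeds in rotting cactus. The arrays were chosen by title, as all those of this population and stage. There were 9 of them among the 172 arrays of the study, 5 of larvae reared on agria cactus and 4 of larvae reared on organ pipe cactus. The larvae were wild-type, came from the Las Bocas (Sonora) fly source of 2009 and grew in bottles at moderate density on laboratory media prepared from either cactus. Sex and age within the instar were not given. The study also held other life stages and a second wild-type population, Punta Prieta, from a fly source of 2008. Of these, Punta Prieta third-instar larvae (5 arrays on agria, 1 on organ pipe) and Las Bocas first-instar larvae (4 and 4), second-instar larvae (5 and 4) and early pupae (4 and 3) were set beside the 9 arrays.

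Agria and organ pipe are columnar cacti of the Sonoran Desert whose decaying tissue feeds both the larvae and the microbes they eat. Mainland populations of this fly mostly use organ pipe, and those of Baja California mostly use agria. The third instar is the last larval stage of a fly: the larva feeds, stores protein and fat, then stops feeding and wanders before the puparium forms, so larvae of one instar can differ in developmental age.

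Each array gave 1 value for each of 14528 transcripts, as log2 signal from whole-animal RNA, and transcripts are named by the identifiers on the array because none could be paired with a gene name here. The 9 arrays had medians of 11.14 to 11.32 and SDs over their transcripts of 1.31 to 1.53. The labels do not tie replicates to separate cultures, and the p-values therefore cover the scatter among these samples alone, part of which may be technical. In whole animals, fewer cells of a type and less RNA per cell cannot be told apart. The tissue and cell type could not be checked by marker genes.

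The labelled stage was checked against stage means made without these 9 arrays, in which the third instar is represented by Punta Prieta alone. Organ pipe replicate 1 correlated best with the third-instar mean (r = 0.955). Agria replicates 1, 2 and 4 correlated best with the second-instar mean, at 0.966, 0.961 and 0.956, and nearly as well with the third-instar mean, at 0.955, 0.953 and 0.949. The other 5 arrays correlated best with the first-instar mean, among them organ pipe replicate 2 at 0.889 against 0.783 for the third instar and organ pipe replicate 4 at 0.936 against 0.854. Some Las Bocas agria arrays of the younger instars used below also departed from their labels by position between stage means. Each group was placed on an axis from the first-instar mean (0) to the second-instar mean (1) built without that group and the 9 arrays. The axes thus differ between groups, and each still holds other Las Bocas agria arrays of these instars. The 4 Las Bocas agria arrays labelled first instar stood between 0.612 and 0.973. The 5 labelled second instar stood at 1.19, 0.409, 0.167, -0.323 and 0.376, mostly nearer the first-instar mean. The organ pipe arrays followed theirs, at -0.495 to 0.216 for the first instar and 0.991 to 1.35 for the second. Diet differences in these 2 stages, and every comparison with them, therefore rest on agria arrays whose stage is in doubt. That doubt comes from position, and single transcripts can read either way. In Punta Prieta on agria, first- and second-instar means were 11.20 and 13.97 for FBtr0170236 and 10.18 and 11.78 for FBtr0160789. On Las Bocas agria arrays labelled first instar, FBtr0170236 read 10.01 to 10.40, on the side of that label. FBtr0160789 read 11.66 to 12.95, on the side of the second instar. The part of array signal range in these positions was not tested. The third-instar comparison carries a like doubt, since only organ pipe replicate 1 among the 9 arrays correlated best with its labelled stage. How far stage rather than diet sets the third-instar differences was not tested.

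Diet did not split the 9 arrays cleanly. Pairwise correlations ran from 0.826 to 0.973 among agria arrays and from 0.715 to 0.964 among organ pipe arrays. Organ pipe replicate 1 correlated at a mean of 0.896 with the agria arrays and 0.771 with the other organ pipe arrays. The first principal component, with 53.9% of the variance, placed the agria arrays at -60.0, -22.5, 3.1, -27.1 and 21.4 and the organ pipe arrays at -47.2, 67.0, 22.8 and 42.5. Replicate 1 of each diet thus sat at the same end, and organ pipe replicate 2 at the other. Diet took 17.2% of the total sum of squares, and 37.5% when organ pipe replicate 1 was left out. The median SD within a diet was 0.370 over transcripts (0.291 on agria, 0.389 on organ pipe), against 0.356 over all 54 groups of the study and 0.267 over groups of adults.

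No transcript was called different between diets by limma at a Benjamini-Hochberg adjusted p under 0.05 (0% of 14528). The lowest adjusted p was 0.776. At an unadjusted p under 0.05 there were 840 transcripts (5.78%), 311 higher (2.14%) and 529 lower (3.64%) on organ pipe. The sizes were less even than those counts: 393 transcripts were at least 2-fold lower on organ pipe (2.71%) and 6 at least 2-fold higher (0.0413%). The median log2 difference over all transcripts was 0.07. The call depended on how the spread was estimated and on 1 array. Array weights gave 3844 calls, 2356 higher and 1488 lower, a balance opposite to the next. With the spread shared by all 54 groups 574 transcripts were called, 26 higher (0.179%) and 548 lower (3.77%), and without organ pipe replicate 1 there were 366, 209 higher and 157 lower.

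The transcripts furthest apart relative to their spread, named by the largest moderated t in each direction, separated the diets completely but did not pass the test. FBtr0161265 had log2 levels of 11.63, 11.65, 11.30, 12.80 and 10.81 on agria and 10.67, 8.83, 9.49 and 9.44 on organ pipe. Every organ pipe array lay below every agria array, with organ pipe replicate 1 the closest, and the log2 difference was -2.03 (SE 0.42, limma adjusted p = 0.776). FBtr0164847 read 13.09, 13.29, 12.68, 12.91 and 11.68 on agria and 11.01, 11.64, 11.13 and 11.38 on organ pipe. Its groups missed overlap by a small gap between agria replicate 5 and organ pipe replicate 2, and its log2 difference was -1.44 (SE 0.31, limma adjusted p = 0.776).

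In the other direction, FBtr0165094 read 9.72, 9.84, 10.12, 10.20 and 9.91 on agria and 10.92, 10.76, 10.69 and 10.49 on organ pipe, a log2 difference of 0.76 (SE 0.18). FBtr0165522 read 10.40, 10.71, 11.01, 10.76 and 10.69 on agria and 11.14, 11.55, 11.75 and 11.80 on organ pipe, a difference of 0.85 (SE 0.20). Both were higher in 4 of 4 organ pipe arrays than in any agria array, at the same limma adjusted p of 0.776. Such separation was found for 130 transcripts higher on organ pipe (0.895%) and 40 lower (0.275%). In a given direction, 1 of the 126 arrangements of the arrays separates the groups, a share of 0.00794 without any diet difference. The 130 higher were near that share and the 40 lower were under it. Without organ pipe replicate 1, FBtr0161265 (-2.39) and FBtr0165522 (0.99) reached a limma adjusted p of 0.0476. With any other single array left out, the limma adjusted p was at least 0.29 for FBtr0161265 and 0.34 for FBtr0165522. The single Punta Prieta organ pipe array had FBtr0161265 at 10.91, where 5 Punta Prieta agria arrays had 12.68 ± 0.87 (SD), and FBtr0164847 at 10.62 against 12.54 ± 0.24.

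**Figure D1:**
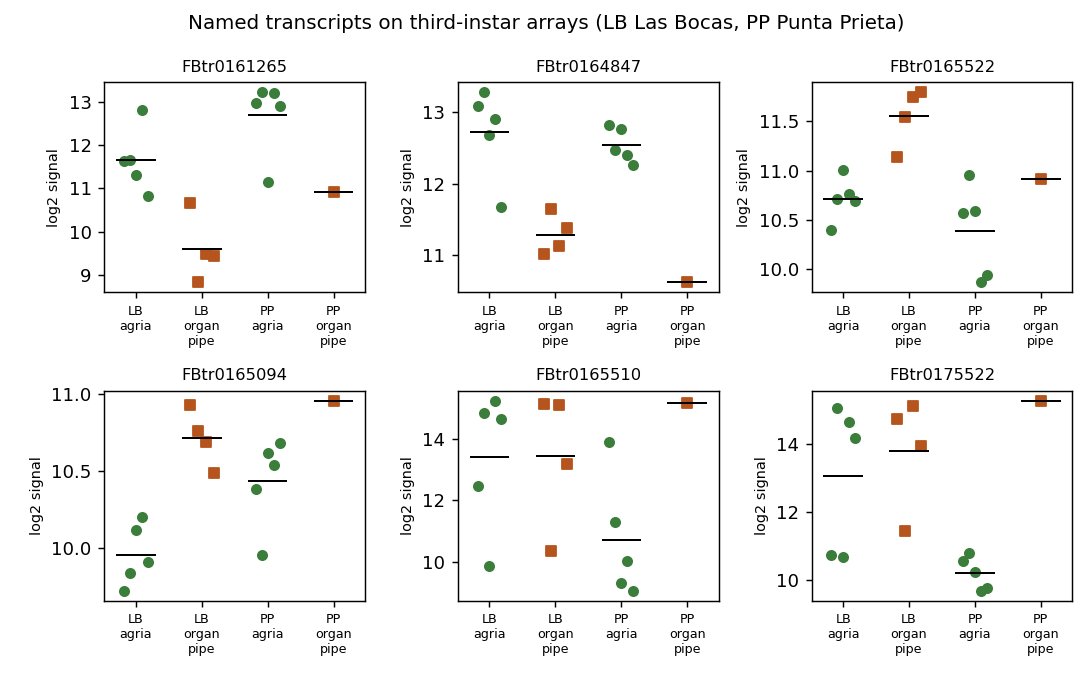
Log2 signal of 6 transcripts on each third-instar array, by population and diet, with the group mean as a line. The upper 3 panels and the lower left panel hold the transcripts with the largest moderated t, whose Las Bocas groups do not overlap. The last 2 panels hold the transcripts with the largest SD within a diet, FBtr0165510 and FBtr0175522.

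The 393 transcripts that were at least 2-fold lower on organ pipe were chosen by that difference, so their values on the 9 arrays are a description. The transcripts nearest the limit had a log2 difference of -1.0003 just inside it and -0.9997 just outside. Their median level was 14.15, 13.71, 13.15, 13.77 and 12.52 on agria and 13.65, 10.71, 12.26 and 11.63 on organ pipe. The diets overlapped: organ pipe replicate 1 stood among the agria arrays, and agria replicate 5 stood closest to the other organ pipe arrays. Organ pipe replicate 1 was the highest organ pipe array for 379 of the 393, and replicate 2 the lowest of all 9 arrays for 335. Organ pipe replicates 2, 3 and 4 all lay below the agria mean for 388, while replicate 1 lay above it for 260, and the diets were free of overlap for 7. In Punta Prieta the same transcripts had medians of 13.80 to 14.17 on 5 agria arrays and 13.11 on the organ pipe array. The count itself moved with single arrays, to 863 without organ pipe replicate 1, 655 without agria replicate 5 and 135 without organ pipe replicate 2.

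The 6 transcripts at least 2-fold higher on organ pipe differed by 1.03 to 1.64 on the log2 scale. Their levels ran from 9.93 to 13.09 on agria and from 10.82 to 15.09 on organ pipe. Organ pipe replicate 1 was the highest of the 9 arrays for 4 of them and replicate 3 for the other two, and 2 of the 6 were free of overlap.

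The lower set was then followed at stages whose arrays had no part in choosing it. In Las Bocas first-instar larvae its median diet difference was again negative, at -1.38 on the log2 scale against 0.11 for all transcripts. Of the 393, 98.0% were lower on organ pipe. Of them, 304 were at least 2-fold lower, where 9.34% of all transcripts were, and 256 were called lower by limma on that stage alone, where 19% of all transcripts were. The array medians of the set were 13.68 to 14.15 on agria and 12.54, 12.58, 13.43 and 11.05 on organ pipe, with no overlap. Leaving out single first-instar arrays moved the median difference between -1.72 and -0.94.

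In Las Bocas second-instar larvae the sign was opposite. All 393 were higher on organ pipe, with a median difference of 1.11 against -0.08 for all transcripts, and 239 were at least 2-fold higher, where 5.49% of all transcripts were. None was called by limma on that stage alone, in which 2120 of all transcripts had an unadjusted p under 0.05. The organ pipe arrays held together at 13.87 to 14.12, whereas the agria arrays read 14.07, 13.48, 12.75, 11.06 and 12.75. Leaving out agria replicate 4, the array at 11.06, brought the median difference to 0.69, and leaving out agria replicate 1 brought it to 1.41. Both signs rest on the doubted agria labels. The set's mean level was 13.89 on the agria arrays labelled first instar and 12.82 on those labelled second, against 12.40 and 13.97 on organ pipe. On either diet it was thus lower on the arrays that stood nearer the first-instar mean, and how far stage rather than diet sets these differences was not tested.

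In early pupae the diets overlapped on the set. Las Bocas agria arrays read 11.78 to 12.42 and organ pipe arrays 11.25 to 12.68. The median difference was -0.18 with 68.4% lower, against 0.06 and 42.4% for all transcripts. It became 0.09 without organ pipe replicate 1 and -0.50 without organ pipe replicate 3. In Punta Prieta the median differences were -0.61 in first-instar larvae, 0.03 in second-instar larvae and -0.18 in early pupae, with 94.4%, 43.3% and 66.4% lower. For all transcripts they were 0.02, 0.04 and 0.03, with 46.9%, 43.0% and 46.7% lower. The first-instar difference of the set in Punta Prieta rested on 2 organ pipe arrays and ran from -1.20 to -0.03 as single arrays were left out.

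**Figure D2:**
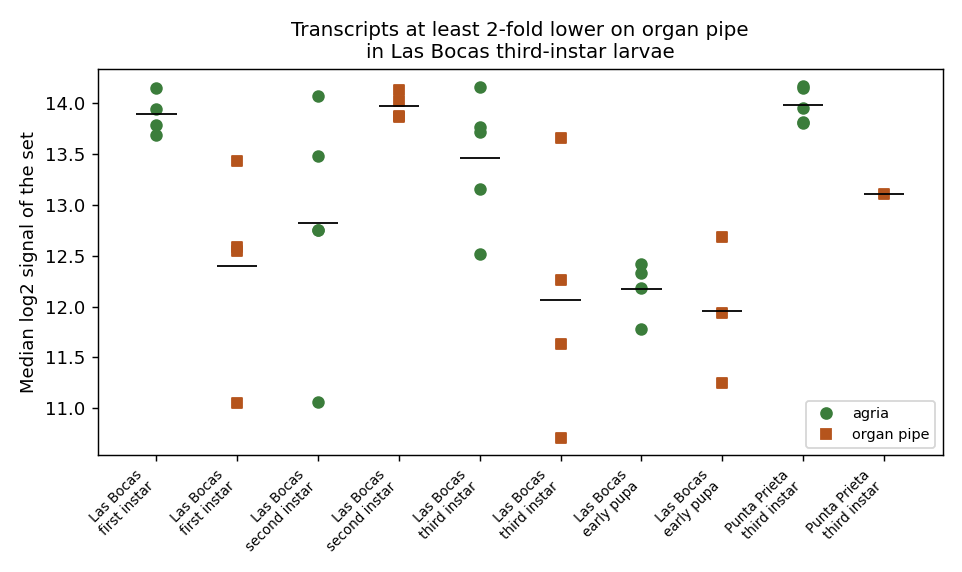
Median log2 signal of the 393 transcripts on each array, by population, stage and diet, with the mean of a group as a line. The third-instar Las Bocas arrays are those the set was chosen on, and the other groups are not. In Las Bocas the organ pipe arrays lie below the agria arrays in the first instar and above the agria mean in the second.

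The set had a high level, which the 2-fold limit itself favours, since dim transcripts have little room to fall. Ranked by level in Punta Prieta third-instar larvae on agria, which the choice did not use, 281 of the 393 (71.5%) lay in the highest decile of all transcripts. Deciles 1, 2 and 3, the dimmest, held 0 of the set, and the lowest level in the set was 10.76. Over stages, the set's median level was 13.53 in the third instar of Punta Prieta, 13.56 in the second instar and 13.93 in newly eclosed females, against 12.55 in the first instar and 12.10 in early pupae. It was not confined to larvae: between 3 and 24 days of adult age the medians lay from 13.50 to 13.98, where all transcripts stood between 11.28 and 11.37.

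The diet difference varied with transcript level, mainly in the brighter transcripts. Over the 4 dimmest deciles the median difference was flat, at 0.11, 0.15, 0.15 and 0.14, and from there it was lower in each, reaching 0.00 in the eighth, -0.13 in the ninth and -0.44 in the highest decile. In the highest decile 77.9% of transcripts were lower on organ pipe. The median level of that decile was 14.07, 13.82, 13.47, 13.89 and 13.26 on the agria arrays and 13.81, 12.45, 13.36 and 13.02 on the organ pipe arrays. Organ pipe replicates 1 and 3 lay inside the range of the agria arrays and replicates 2 and 4 below it. The same decile had a median difference of -0.62 in first-instar larvae, 0.63 in second-instar larvae and -0.02 in early pupae of Las Bocas. This decile of 1453 transcripts held 281 of the lower set, so setting it beside the set is partly a comparison of the set with itself. The signs of the set in the first and second instars were shared, at smaller size, by the decile as a whole. The decile without the set was not measured. The spread of values within an array, which such a difference in bright transcripts moves, had an SD of 1.43 ± 0.08 (SD, n = 5) on agria and 1.38 ± 0.05 (n = 4) on organ pipe. By array it was 1.53, 1.44, 1.37, 1.47 and 1.34 on agria and 1.42, 1.31, 1.40 and 1.37 on organ pipe. The 4 arrays where the lower set was highest, agria replicates 1, 2 and 4 and organ pipe replicate 1, had the 4 widest spreads, and organ pipe replicate 2, where it was lowest, had the narrowest. With it as a covariate in limma, 0 transcripts were called and 500 had an unadjusted p under 0.05. The part of array signal range in the difference was not tested further.

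**Figure D3:**
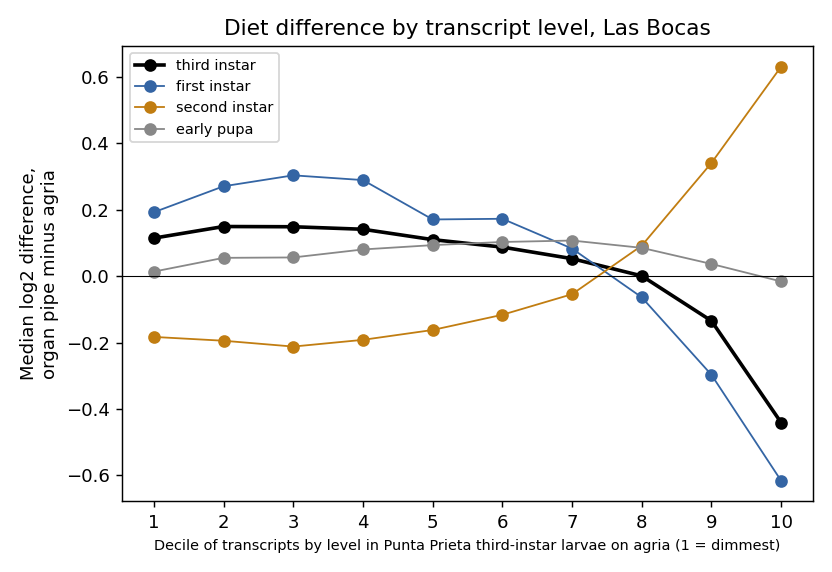
Median log2 difference between diets in Las Bocas (organ pipe minus agria) for each decile of transcripts, ranked by level in Punta Prieta third-instar larvae on agria. In the third instar (black) it goes from 0.11 in the dimmest decile to -0.44 in the brightest. The line of the first instar runs the same way and that of the second instar the opposite way.

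Lists of stage-restricted transcripts, made without the 9 arrays, were then read on them, with counts and medians and no test of a list. The 90 transcripts at least 2-fold higher in all 3 larval instars than in any other stage had median levels of 14.37, 14.13, 13.93, 14.16 and 13.57 on agria and 14.03, 12.07, 13.08 and 13.13 on organ pipe. Organ pipe replicates 2, 3 and 4 lay below every agria array, and replicate 1 among them. The median log2 difference of the list was -0.78, with 94.4% of its members lower on organ pipe, against 39.3% of all transcripts. None was called by limma, and 41 were lower and none higher at an unadjusted p under 0.05 (3.64% and 2.14% of all transcripts). Of the 90, 32 were at least 2-fold lower, where 2.71% of all transcripts were, and 6 were lower without overlap, where 0.275% were. In the highest decile of levels, 74 transcripts of this list had a median difference of -0.80 and the 1379 others one of -0.43. In Punta Prieta the list stood at 14.16 to 14.45 on agria and at 13.59 on organ pipe.

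The 55 transcripts of late larvae, higher in the second instar and the third than at any other stage, gave similar values, with a median difference of -0.75 and 89.1% lower. Of these, 21 were lower and 1 higher at an unadjusted p under 0.05 (3.64% and 2.14% of all transcripts). At least 2-fold lower were 18 (32.7%, against 2.71% of all). The 51 transcripts of feeding stages, higher in larvae and adults than in eggs and pupae, had a median of -0.50 with 86.3% lower. Of them, 5 were lower at an unadjusted p under 0.05 and 12 at least 2-fold lower (23.5%). This list was bright, with medians of 14.04 to 14.95 on the agria arrays. Its values were near those of the highest decile of all transcripts, where the median was -0.44, with 77.9% lower and 19.3% at least 2-fold lower. The median of the feeding-stage list was -0.04 without organ pipe replicate 2, so it rested on that array. Those of the larval lists were -0.49 and -0.43 without it, and -1.13 and -1.10 without organ pipe replicate 1.

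Most lists of other stages lay slightly above the median of all transcripts, 0.07, of which 39.3% were lower, 2.14% higher and 3.64% lower at an unadjusted p under 0.05. Most were also dim on the 9 arrays, with late pupal list medians of 9.35 to 10.14. The 4 dimmest deciles of all transcripts had median differences of 0.11 to 0.15, with 18.7% to 26.5% lower. The 137 transcripts of both pupal stages had a median difference of 0.23, with 15.3% lower in all and 8 higher at an unadjusted p under 0.05. The 174 of late pupae (0.19, 10 higher), the 121 of eggs (0.19, 3 higher), the 19 of eggs and mature females (0.17, 1 higher) and the 72 of adults (0.14, 2 higher and 1 lower) differed as little. The 84 transcripts of early pupae, the stage that follows the third instar, had a median of 0.14, with 2 higher and 3 lower. The first-instar list held 2 transcripts, with a median of 0.00. No member of any of these lists was called.

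**Figure D4:**
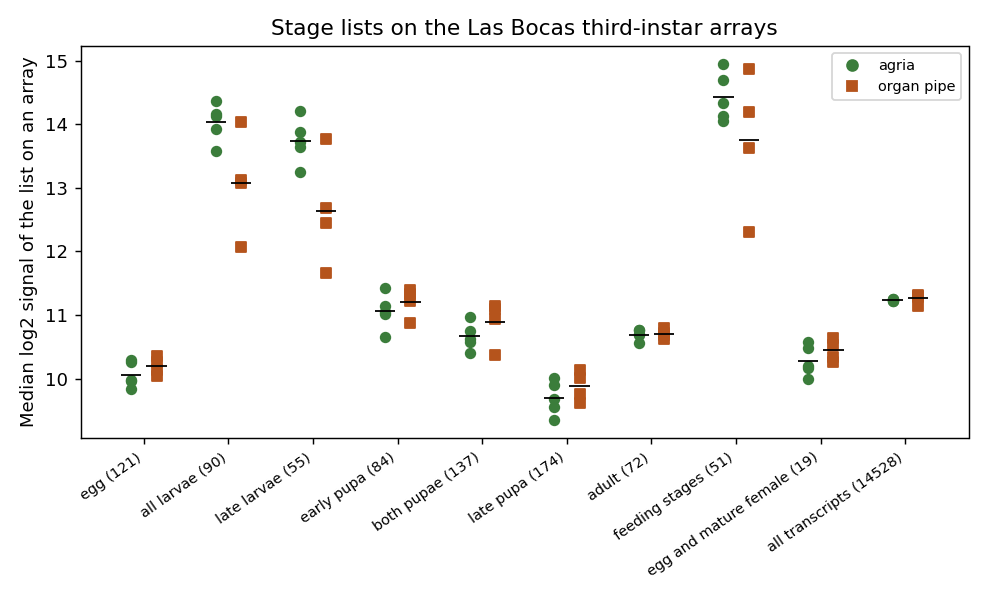
Median log2 signal of each stage list on the 9 Las Bocas third-instar arrays, with the number of transcripts on the list in parentheses and the mean of a diet as a line. In the larval lists 3 organ pipe arrays lie below all agria arrays and 1 lies among them. In the lists of eggs, pupae and adults the diets overlap.

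Developmental position was measured on axes built without third-instar arrays. Between the second-instar mean (0) and the early pupal mean (1), over 1720 transcripts, agria arrays stood at -0.081, 0.150, 0.209, 0.083 and 0.227 and organ pipe arrays at -0.037, 0.592, 0.339 and 0.375. Organ pipe replicates 2, 3 and 4 stood nearer the pupal end than any agria array, and replicate 1 at the larval end. The means were 0.118 ± 0.124 (SD, n = 5) and 0.317 ± 0.261 (n = 4), a difference of 0.200 that did not pass an exact two-sided permutation test (p = 0.183, adjusted p = 0.302 over the 2 axes). The smallest p this design allows is 0.00794.

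Between the first-instar mean (0) and the second-instar mean (1), over 683 transcripts, agria arrays stood at 1.25, 0.611, 0.410, 0.766 and 0.442 and organ pipe arrays at 1.20, -0.309, 0.322 and 0.114. The same 3 organ pipe arrays lay nearer the first-instar end than any agria array. The difference in means was -0.364 (exact two-sided permutation p = 0.302, adjusted p = 0.302). The 3 arrays thus stood away from the second instar on both axes, which share that stage mean, towards its younger and its older neighbour alike. On axes from Punta Prieta arrays alone, which leave out the Las Bocas arrays that departed from their labels, the differences were 0.181 and -0.347. Without organ pipe replicate 1 the differences were 0.318 and -0.655, both at an adjusted exact permutation p of 0.0357, where the 3 arrays left already stood apart from all agria arrays. Without organ pipe replicate 2 they were 0.108 and -0.150, both at an adjusted exact permutation p of 0.643. Punta Prieta agria arrays stood between -0.225 and -0.015 on the first axis and between 1.09 and 1.62 on the second. The Punta Prieta organ pipe array stood at 0.146 and 0.747, among the Las Bocas agria arrays.

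**Figure D5:**
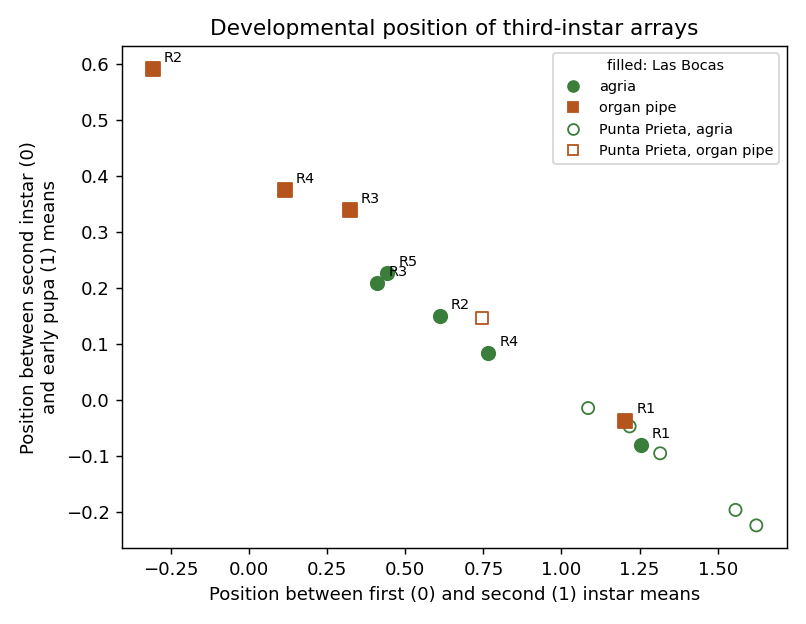
Position of each third-instar array between the first- and second-instar means (horizontal) and between the second-instar and early pupal means (vertical), without units. Filled points are Las Bocas arrays with their replicate number and open points Punta Prieta arrays. Organ pipe replicates 2, 3 and 4 lie at the upper left of all other arrays, and replicate 1 of both diets lies near the Punta Prieta agria arrays.

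The transcripts that varied most within a diet did not follow this order. FBtr0165510 read 12.48, 14.83, 9.87, 15.24 and 14.64 on agria and 15.14, 10.37, 15.11 and 13.18 on organ pipe, an SD within diets of 2.25. FBtr0175522 read 10.72, 15.05, 10.67, 14.64 and 14.17 on agria and 14.71, 11.42, 15.11 and 13.93 on organ pipe, an SD of 1.97. Both were low on agria replicate 3 and organ pipe replicate 2 and high on the same 6 arrays, with agria replicate 1 between in the first and low in the second. Group means of FBtr0165510 in Las Bocas first and second instars and early pupae lay between 9.14 and 10.42. The highest of them held 1 array, organ pipe replicate 2 of the second instar, at 13.89. In Punta Prieta third-instar larvae it had 10.72 ± 1.98 (SD, n = 5) on agria and 15.17 on the organ pipe array, and FBtr0175522 had 10.21 ± 0.49 and 15.26. High levels of both transcripts were thus found on some third-instar arrays of either diet in Las Bocas.

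Whether the diet difference differed between populations was tested over the 15 third-instar arrays. No transcript was called in limma (0%), 256 had an unadjusted p under 0.05 (1.76%), and the test rested on 1 Punta Prieta organ pipe array. The largest moderated t belonged to FBtr0163392, with a difference between populations of -2.17 (SE 0.43) on the log2 scale, and FBtr0171992, with -1.59 (SE 0.36), both at a limma adjusted p of 0.999. FBtr0163392 had group means of 12.54 on agria and 12.76 on organ pipe in Las Bocas, and 13.97 and 12.03 in Punta Prieta. In the positive direction FBtr0163840 differed by 1.51 (SE 0.44) and FBtr0172072 by 1.56 (SE 0.50).

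The diet difference of the third instar was set against that of the second in a fit over 33 Las Bocas arrays. Of 14528 transcripts, 4 passed in limma (0.0275%), 2 in each direction (0.0138% each), and 4012 had an unadjusted p under 0.05 (27.6%). FBtr0170236 had second-instar levels of 9.33, 10.71, 10.98, 12.51 and 13.62 on agria and 14.48, 14.75, 14.19 and 14.56 on organ pipe. In the third instar it read 14.08, 14.52, 14.32, 14.55 and 13.80 on agria and 13.92, 12.17, 13.44 and 13.84 on organ pipe. It was thus far lower on agria in the second instar and slightly higher on agria in the third, by the labels, and the diet difference changed by -3.98 (SE 0.70, limma adjusted p = 0.0393).

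FBtr0160789 had means of 10.89 on agria and 12.19 on organ pipe in the second instar and 11.89 and 10.38 in the third, a change of -2.82 (SE 0.52). Its first-instar means were 12.20 on agria and 10.36 on organ pipe. The second-instar agria arrays mostly stood nearer the first-instar mean, and the part of stage in this sign was not tested. FBtr0165094, among those higher on organ pipe in the third instar, had second-instar means of 10.70 on agria and 10.11 on organ pipe, a change of 1.34 (SE 0.25). FBtr0169540 had 10.89 and 10.40 in the second instar and 10.63 and 11.32 in the third, a change of 1.17 (SE 0.22). All 4 passed at a limma adjusted p of 0.0393. The number called rose to 2048 without organ pipe replicate 1 of the third instar, 1574 without agria replicate 5 of the third instar and 4780 without agria replicate 1 of the second, and was 0 in 8 other such fits, so the 4 calls depended on single arrays. None was called after a repeated quantile normalization, or with the spread taken from these 2 stages alone, which left 3144 at an unadjusted p under 0.05 in limma.

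Against the first instar, no change in the diet difference was called in limma (0%), and 1007 transcripts had an unadjusted p under 0.05 (6.93%). The first instar alone had 6350 transcripts called between diets (43.7%), the third none; this contrast in counts is not itself a difference between the stages. The first-instar agria arrays stood at 0.612 to 0.973 towards the second instar and the organ pipe arrays at -0.495 to 0.216, so stage and diet cannot be told apart in those 6350. The largest moderated t belonged to FBtr0161867, with first-instar means of 12.97 on agria and 11.89 on organ pipe and third-instar means of 11.58 and 12.02, a change of 1.51 (SE 0.28, limma adjusted p = 0.0896). FBtr0173944 followed with 1.47 (SE 0.28). In the other direction FBtr0161888 gave -2.41 (SE 0.53) and FBtr0173317 gave -0.89 (SE 0.22).

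Against early pupae, 33 transcripts were called in limma (0.227%), all with a more negative diet difference in the pupae, and 937 had an unadjusted p under 0.05 (6.45%). All 33, which this difference itself selected, were lower on organ pipe in the pupae, with a median of -1.84, and had a median diet difference of 0.28 in the third instar. On axes from the second-instar mean (0) to the early pupal mean (1), each built without the group placed on it, the organ pipe pupae stood at 0.754 to 0.967. The agria pupae stood further on, at 1.02 to 1.14. How far stage rather than diet sets the difference of the 33 was not tested. In the pupae alone limma called 0 of all transcripts, with 1046 at an unadjusted p under 0.05. FBtr0175557 read 13.92, 14.30, 14.32 and 13.60 in early pupae on agria and 9.95, 11.54 and 12.16 on organ pipe. In third-instar larvae it lay between 9.91 and 10.30 on all 9 arrays, and the diet difference changed by -2.92 (SE 0.44, limma adjusted p = 0.00437). FBtr0171251 changed by -2.74 (SE 0.51, limma adjusted p = 0.0172), with pupal means of 12.60 on agria and 10.16 on organ pipe. The strongest in the other direction, FBtr0162518, gave 2.20 (SE 0.50, limma adjusted p = 0.0517) and FBtr0170640 gave 1.15 (SE 0.30). The count of 33 ran from 2 without organ pipe replicate 2 of the pupae to 189 without agria replicate 1 of the pupae. With the spread of the 2 stages alone limma called 0, and 890 had an unadjusted p under 0.05.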

How the data were processed

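The authors deposited 1 table of log2 signal for 14528 transcripts on 172 one-colour NimbleGen arrays after RMA, a step named in the submitters' processing notes. The sources used here do not give its software, its version or the set of arrays it covered. Per the labels' protocols, column-purified total RNA was the template for double-stranded cDNA, which carried the Cy3 dye. Slide and scan batch were not given, so no batch was fitted, and no background measurement was used. The number of arrays limits the precision.

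The deposited log2 values were analysed with limma 3.58.1 in R 4.3.3 (lmFit, eBayes, Benjamini-Hochberg over all transcripts, adjusted p under 0.05), on the 9 arrays alone (7 residual degrees of freedom), the 15 third-instar arrays or 33 Las Bocas arrays. A stage list holds transcripts whose mean in each of its stages was at least 1 log2 unit above that in every other stage. A position is the least-squares place of an array between 2 stage means, over transcripts at least 1 log2 unit apart. Means weigh population and diet groups equally, and diets were compared by exact permutation over 126 arrangements. Named transcripts are the 2 called with the largest change in each direction, or else those with the largest moderated t, and the 2 with the largest SD within a diet. None of the array's identifiers (0) matched the gene table given, so marker lists were not run. The groups, lists and tests were chosen with earlier results of these data known. The at least 2-fold sets replaced called transcripts after none was called. Tested on simulated data with 200 of 14528 transcripts changed, the 9-array fit recovered 22% at a log2 change of 1 and 87.5% at 2. The fit of the third minus the second instar recovered 19% and 81%. The simulated noise was independent between transcripts and the changed transcripts were drawn at random. On the real arrays many transcripts moved together, so these rates do not give the power of the real comparisons. Alternatives were other spread estimates, scalings, array weights, filters and axes, and leaving out single arrays.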

Additional observations from a re-analysis of the deposited data

Results flagged for a closer look

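Among 78 groups of values examined for a sample far from the others, 2 were found, where chance gives about 1 in 20. The median log2 signal of organ pipe replicate 1 in Las Bocas third-instar larvae was 11.14, below the other 3 organ pipe arrays at 11.29 to 11.32. FBtr0160789 stood at 11.23 on the same array, above the other 3 at 10.00 to 10.18. Between stages, the diet difference of the third instar differed from that of the second for 4 transcripts and that of early pupae from the third instar for 33, each tested as a difference in limma.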

How the results depend on the processing

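Sharing the spread over all 54 groups called 574 transcripts for diet in the third instar, 2 for the difference between populations, 2489 for the third against the second instar (482 higher, 2007 lower), 48 for the third against the first and 71 for early pupae against the third (37 higher, 34 lower). Array weights called 3844 for diet (2356 higher, 1488 lower). For the third against the second instar, quantile normalization left 0 called, centring left 1, and a spread from only the 2 stages left 0, as it did (0) for early pupae against the third. Quantile normalization gave 10 transcripts at least 2-fold higher in place of 6. The cause was not tested. Leaving out single arrays gave 0 to 366 called for diet, 0 to 0 between populations, 0 to 4780 against the second instar, 0 to 15 against the first and 2 to 189 for early pupae. It gave 135 to 863 transcripts at least 2-fold lower and 5 to 17 higher, and position differences of 0.108 to 0.318 and of -0.655 to -0.150. The same-numbered arrays of the 2 diets did not pair (correlations of 0.44, -0.09, -0.27 and 0.15). A fit with the replicate number as a block called 0, with 2280 at an unadjusted p under 0.05. Replicate 5 exists on agria alone, so that array did not enter the diet difference of the block fit. The other spread, scaling, filter and moderation settings also called 0 for diet. Of 375 values of named transcripts under the alternatives, 286 kept direction and side of the threshold, 61 lost the call, 28 gained one and 0 reversed. With 1 Punta Prieta organ pipe array and no probe background, differences of small size or at low signal could not be resolved.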
